A study of Homo sapiens with 6 samples.

Results

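The interferon response and RNA sensor genes are a set of 45 named human genes: sensors of foreign RNA and their adaptor, the STAT and IRF transcription factors that carry the signal, and interferon-stimulated genes. They are defined by name alone, as a reading of innate sensing after siRNA transfection. Of the 45, 44 had a row among the 31348 genes measured in TPC1 thyroid cancer cells, and 35 passed a mean level of 0.5 FPKM, as did 13317 genes in all. FPKM is a read level corrected for transcript length and for library size. XAF1, an interferon-induced promoter of apoptosis, had no row and counts as undetected. The other 9, DHX58, OAS2, MX1, MX2, RSAD2, CMPK2, BST2, ISG20 and IFI44L, lay under that level and were given values but no place in the main test.

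The si-SRPX2 group was TPC1 cells labelled SRPX2 knockdown, transfected with an siRNA against SRPX2, a secreted sushi-repeat protein. The si-Control group was TPC1 cells labelled WT, transfected with a control siRNA. TPC1 is an established human papillary thyroid carcinoma line with a RET/PTC rearrangement. Each group had 3 libraries, and the study describes them as biological repeats of 1 SRPX2 siRNA and 1 control siRNA. Both groups carried a transfected double-stranded RNA and the transfection reagent, and no untransfected cells were analysed here, so a response shared by both groups cannot be told apart from the cells' usual level. The labels of all 6 samples give day 2, DMEM with serum and an adipogenic differentiation treatment, whereas the study's methods give another medium, a shorter interval and no such treatment.

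In the type I and type III interferon pathways, cells recognise foreign RNA through sensors. RIG-I (gene DDX58) and MDA5 (IFIH1) lie in the cytosol and signal through MAVS on mitochondria, TLR3 lies in endosomes, and PKR (EIF2AK2) blocks translation once it binds double-stranded RNA. Sensing activates IRF3 and IRF7, which switch on interferon genes, and secreted interferon acts through its receptors and the JAK kinases to activate a transcription factor complex that holds STAT2 and IRF9. That complex binds a short promoter element, the interferon-stimulated response element (ISRE), and raises many genes that restrict viruses, most of the genes described here among them. siRNAs are double-stranded RNAs, and some can trigger these sensors in mammalian cells.

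The ISRE core shows what many of these genes share in sequence. It was searched as GAAANNGAAA, where N is any base, on both strands of the RefSeq promoter windows (GRCh38.p14). These run from 250 bases before to 50 bases after a gene's start, and some genes have more than 1 window. At least 1 core was found in 23 of the 34 genes of the set with a promoter entry (67.6%), against 1195 of all 27305 genes with such an entry (4.38%). The windows of CMPK2, HERC6, IFI35, IRF1, IRF9, MAVS, OAS1, SAMHD1, SP110, STAT2 and XAF1 held no such letters, and the other 11 genes of the set were not searched. A match is a description of the letters and not of bound protein. The sequences below are stretches upstream of the RefSeq start, 5′ to 3′ on the gene's strand, with every core in capitals, TTTCNNTTTC being the core read on the opposite strand. For ISG15, IFITM3 and IFI27 that start differs from the edge of the measured gene, and the stretch lies inside the gene's measured extent. ISG15, IFIT3, IFITM3 and PARP14 are shown because each had the highest level of its functional group, and IFI27, IFI6 and GBP1 because they were among the 6 with the smallest p for the replicate number, described further on. OAS3 meets both rules and held 2 upstream cores, but its stretch is not printed. A second window of IFIT3, with 2 upstream cores, is not printed either. The stretches lie at chr1:1013364-1013419 (plus strand) for ISG15, chr10:89327821-89327904 (plus strand) for IFIT3, chr11:320866-320932 (minus strand) for IFITM3, chr3:122680790-122680838 (plus strand) for PARP14, chr14:94110608-94110670 (plus strand) for IFI27, chr1:27672256-27672368 (minus strand) for IFI6 and chr1:89065306-89065355 (minus strand) for GBP1.
ISG15: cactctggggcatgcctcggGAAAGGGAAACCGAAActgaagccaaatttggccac
IFIT3: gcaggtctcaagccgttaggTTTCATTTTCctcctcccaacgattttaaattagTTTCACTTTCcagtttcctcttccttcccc
IFITM3: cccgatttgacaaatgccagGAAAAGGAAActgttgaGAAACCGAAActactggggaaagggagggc
PARP14: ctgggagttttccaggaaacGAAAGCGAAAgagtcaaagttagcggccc
IFI27: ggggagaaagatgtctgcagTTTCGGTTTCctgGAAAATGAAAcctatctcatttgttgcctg
IFI6: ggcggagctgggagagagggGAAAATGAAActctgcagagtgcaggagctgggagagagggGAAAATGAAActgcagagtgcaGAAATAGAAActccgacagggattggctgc
GBP1: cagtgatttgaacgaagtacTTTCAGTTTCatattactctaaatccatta
In ISG15 the 2 cores overlap by 4 bases, and in IFI6 a core of the same letters occurs at 2 places, with a further core downstream of both.

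The libraries held between 63824315 and 75828542 counted reads, so that 3 reads, the limit under which a gene cannot be told from absent, correspond to between 0.0395 and 0.0484 CPM, the read count scaled to library size by TMM. SRPX2 itself had 140, 157 and 263 reads in the si-SRPX2 libraries, against 243, 335 and 308 in the si-Control libraries, a log2 fold change of −0.71 that did not pass the test (standard error, SE, 0.328, edgeR unadjusted p = 0.0683 when all 31348 genes were fitted). With the replicate number as a block the value for SRPX2 was −0.76 (SE 0.241, edgeR unadjusted p = 0.0219, adjusted p = 0.835), and si-SRPX2 was lower in all 3 pairs. Scaled to library size, SRPX2 had 1.92, 2.12 and 3.80 CPM in the si-SRPX2 libraries, against 3.92, 4.42 and 4.39 CPM in the si-Control libraries, without overlap. The difference of SRPX2 in log2 CPM was smallest between the replicate 3 libraries, at −0.19. At a mean of 0.407 FPKM over all libraries, SRPX2 lay under the level of 0.5 FPKM asked for in the main test. The thyroid transcription factor gene PAX8 was high, at a mean of 91.1 FPKM, and thyroglobulin (TG) was at 0.137 FPKM. Of 8 leukocyte markers listed, 6 had a row and 1 to 3 were at 0 in each library. PTPRC and NKG7 were at or near 0, while CD68, a lysosomal protein gene, had a mean of 8.64 FPKM, and the summed FPKM of the leukocyte list was 9.36 to 14.2 with si-SRPX2 and 5.30 to 10.8 with si-Control. The part of these markers in the results was not tested. These are bulk libraries, in which fewer cells that express a gene and less RNA per cell cannot be told apart.

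Transcripts of the sensing machinery were present in all 6 libraries, and several of the classical interferon-induced genes were nearly absent. Mean levels over the libraries reached 10 FPKM in 5 of the 44 genes, lay from 1 to 10 FPKM in 27, from 0.5 to 1 FPKM in 3, from 0.1 to 0.5 FPKM in 6 and under 0.1 FPKM in 3. The median over the 35 genes past the expression filter was 4.43 FPKM, against 4.90 FPKM over all genes past it. IFITM3, a membrane protein that blocks virus entry, stood far above the rest with 115, 91.0 and 89.8 FPKM in the si-SRPX2 libraries, against 125, 89.7 and 93.7 FPKM in the si-Control libraries. Its relative IFITM2 followed at a mean of 16.4 FPKM. IFITM1, at 4.43 FPKM, lies within the extent of IFITM2 on the same strand, and the 3 are closely similar copies, so that their reads can be split between them in counting and each level is uncertain.

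Among the sensors, the adaptor MAVS had the highest level (chromosome 20, 3846799 to 3876123, plus strand of GRCh38), with 12.9, 11.7 and 14.9 FPKM in the si-SRPX2 libraries, against 12.96, 11.7 and 15.3 FPKM in the si-Control libraries. EIF2AK2, the kinase PKR, had a mean of 8.97 FPKM, DDX58 5.74 FPKM, IFIH1 2.38 FPKM and TLR3 1.57 FPKM. DHX58, which encodes the regulatory sensor LGP2, was at 0.250 FPKM. In IRF3, the factor that is present before any signal, the level was 12.5, 11.8 and 12.8 FPKM in the si-SRPX2 libraries, against 14.3, 12.1 and 13.4 FPKM in the si-Control libraries. IRF3 overlaps BCL2L12 on the other strand, and the sources used here do not say whether counting used strand. STAT2 had a mean of 8.11 FPKM, IRF1 2.99 FPKM, IRF9 2.65 FPKM and IRF7, which interferon itself induces, 1.96 FPKM. The levels of MAVS and IRF3 overlapped across the libraries.

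The effector genes covered a far wider range. OAS3, one of the enzymes that make 2-5A and so activate RNase L, was at 8.05 FPKM, whereas OAS1 was at 0.851, OASL at 0.733 and OAS2 at 0.465 FPKM. IFIT3 led the IFIT proteins, which bind viral RNA, at 5.57 FPKM, followed by IFIT5 at 3.29, IFIT2 at 2.91 and IFIT1 at 2.40 FPKM. IFIT1, IFIT2 and IFIT3 lie inside the extent of LIPA on the opposite strand, a gene with a mean of 6629.7 reads, and reads of the strands could not be separated here. ISG15, the ubiquitin-like modifier, was at 9.93 FPKM and PARP14, a mono-ADP-ribosyltransferase, at 10.0 FPKM. At the other end, MX2, a GTPase that restricts retroviruses, had 0, 0 and 0 reads in the si-SRPX2 libraries, against 4, 3 and 0 in the si-Control libraries. RSAD2, which encodes viperin, had 0, 4 and 7 reads in the si-SRPX2 libraries, against 7, 0 and 22 in the si-Control libraries. CMPK2, its neighbour and a mitochondrial nucleotide kinase, had 8, 12 and 4 reads in the si-SRPX2 libraries, against 0, 19 and 41 in the si-Control libraries. BST2, which tethers budding virus at the membrane, had 26, 4 and 58 reads in the si-SRPX2 libraries, against 23, 9 and 12 in the si-Control libraries. RSAD2 and CMPK2 had 0 reads in a library of at least 1 group, and the read counts of all 4 genes overlapped or tied between the groups. Interferon beta (IFNB1) had 0, 4 and 0 reads in the si-SRPX2 libraries, against 0, 0 and 0 in the si-Control libraries.

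**Figure D1:**
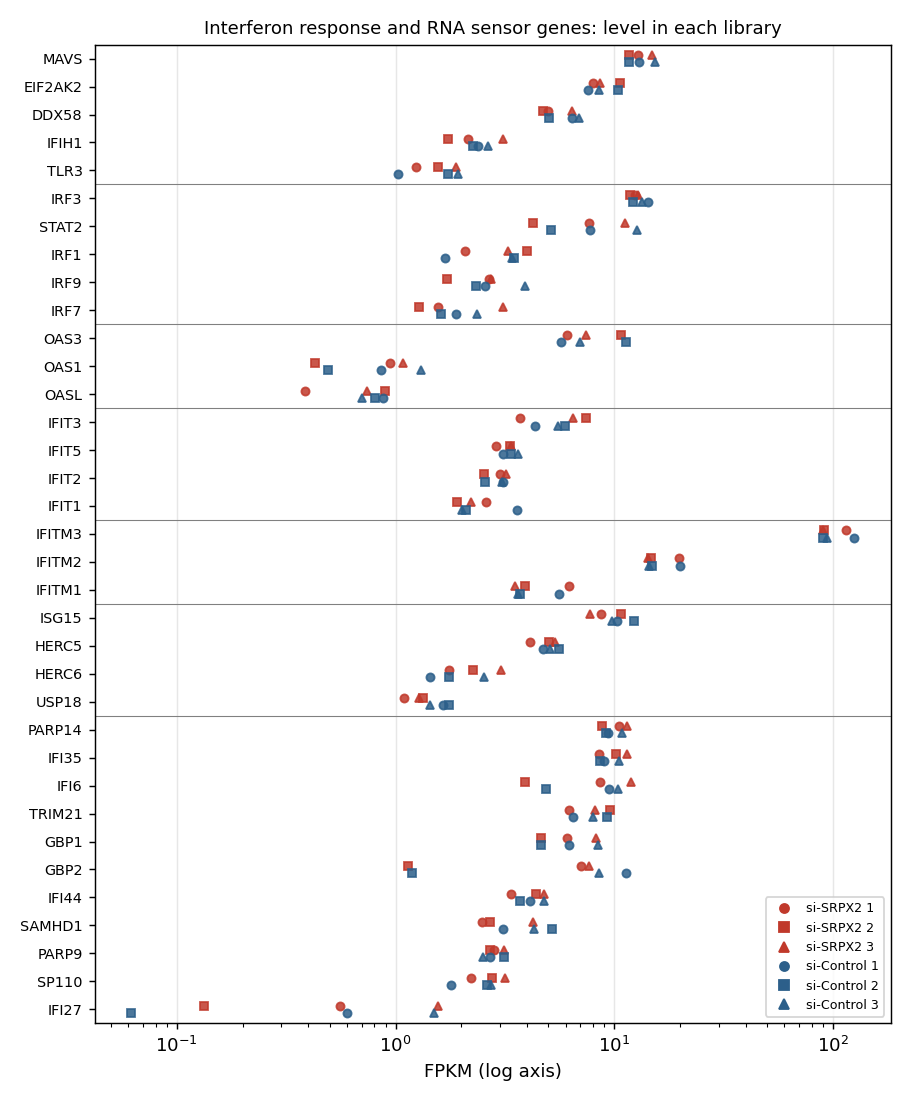
Level of each of the 35 genes past the expression filter in each library, in FPKM on a log axis, ordered by functional group, with si-SRPX2 in red above si-Control in blue and a symbol for each replicate number. IFITM3 lies at the right end of the axis at 89.7 to 125 FPKM, most other genes lie between 1 and 10 FPKM, and the points of the groups overlap in all genes but USP18.

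The comparison of si-SRPX2 with si-Control asks whether these genes differ after knockdown of SRPX2. None of the 35 differed between si-SRPX2 and si-Control at an adjusted p under 0.05 or an unadjusted p under 0.05 in edgeR's quasi-likelihood test (Benjamini-Hochberg adjustment over 13317 genes). Over all tested genes 0 passed the adjusted threshold (0%), and 66 had an unadjusted p under 0.05 (0.496%). With DESeq2 3 of all genes passed the adjusted threshold, and with the replicate number as a block in edgeR 6 did, none of these 6 from the set. Of the 35 log2 fold changes 10 were positive and 25 negative, with a median of −0.05 and a range of −0.45 to 0.26, whereas over all genes 47.9% were positive with a median of −0.01. Within replicate numbers 1, 2 and 3, the median difference in log2 CPM was −0.09, −0.02 and −0.06.

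Libraries of the same replicate number deviated together, and a model that held the replicate number as a block had smaller SE. In it, 6 of the 35 had an unadjusted p under 0.05 from edgeR (17.1%), against 9.21% of all genes. Of these STAT2, IRF9, ISG15, SAMHD1 and GBP2 were lower with si-SRPX2, where 4.89% of all genes were lower, and HERC6 was higher, where 4.32% were higher. None passed after adjustment, the smallest adjusted p being 0.482 for SAMHD1 in edgeR with the block. With no expression filter, the blocked unadjusted p from edgeR was 0.0726 for IRF9 and 0.0452 for DDX58. Which genes lie under 0.05 thus depends on the filter. Compared within the same-numbered pairs, 10 of the 35 (28.6%) were lower with si-SRPX2 in all 3 pairs, against 16.9% of all genes, and 2 were higher in all 3, against 15.5%. These counts, for the set and for all genes, are of signs only, whatever the size. IFIT2, among the 10, differed by −0.0674, −0.0056 and −0.0052 in log2 CPM.

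**Figure D2:**
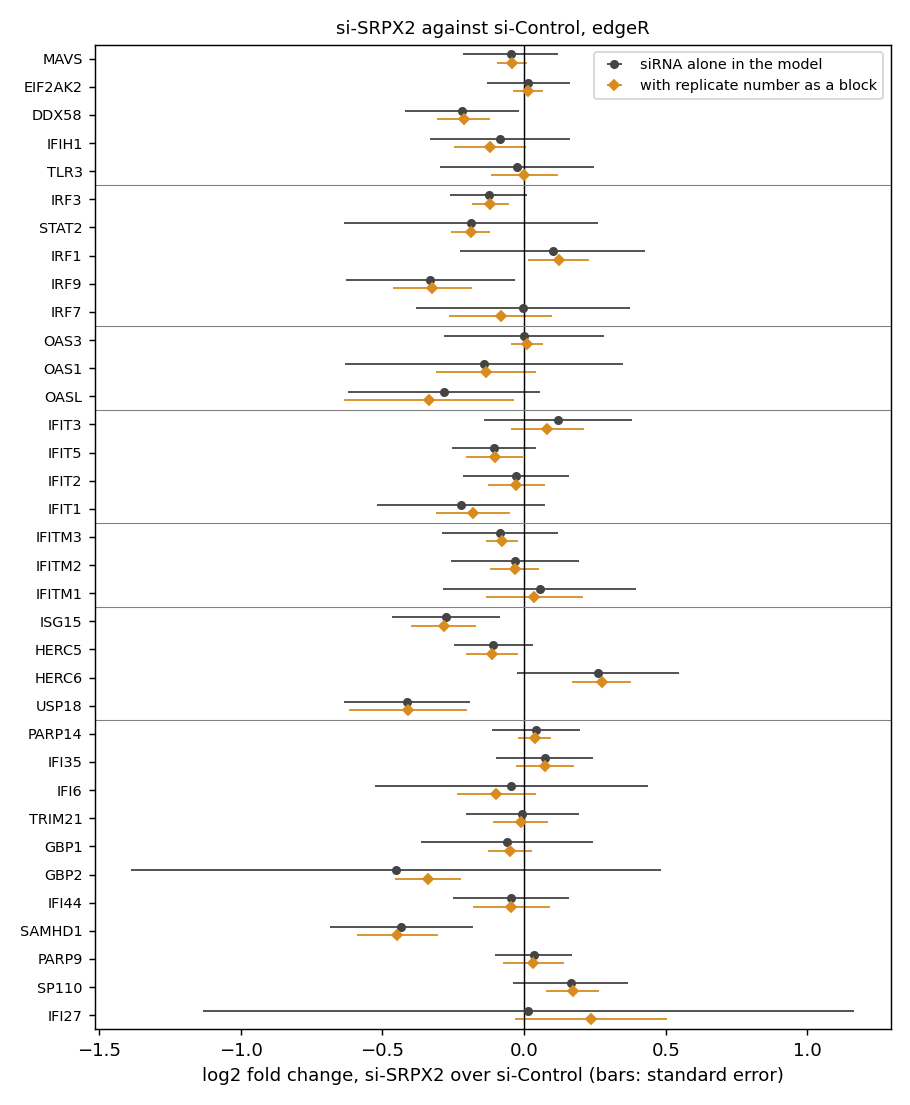
Log2 fold change of si-SRPX2 over si-Control for each of the 35 genes, in edgeR with siRNA alone in the model (dark circles) and with the replicate number as a block (orange diamonds), with bars of 1 standard error. The estimates lie between −0.45 and 0.27, and the bars of GBP2, IFI27 and STAT2 shorten most with the block.

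In the ISG15 system, ISG15, USP18 and HERC5 had negative log2 fold changes and HERC6 a positive one. USP18, the protease that removes ISG15 and damps interferon signalling at its receptor (chromosome 22, 18150170 to 18177397, plus strand), had 2.33, 2.68 and 2.60 CPM in the si-SRPX2 libraries, against 3.58, 3.52 and 3.04 CPM in the si-Control libraries. Each si-SRPX2 value lay under each si-Control value, at means of 2.54 ± 0.185 CPM with si-SRPX2 and 3.38 ± 0.296 CPM with si-Control (SD, n = 3 each). Such a separation was found in 1 of the 35 genes, USP18 alone, with si-SRPX2 lower, against 1.66% of all genes. In the other direction 0 of the 35 separated, against 1.6% of all genes. The log2 fold change of USP18 was −0.41 (SE 0.222), with an unadjusted p of 0.109 and an adjusted p of 0.99997 in edgeR.

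ISG15 itself (chromosome 1, 1001138 to 1014540, plus strand), whose promoter holds the overlapping cores printed above, had 8.67, 10.1 and 7.30 CPM in the si-SRPX2 libraries, against 10.4, 11.4 and 9.69 CPM in the si-Control libraries. The groups overlapped only in that si-SRPX2 replicate 2 exceeded si-Control replicate 3, and si-SRPX2 was lower within every pair, with differences of −0.25, −0.17 and −0.38 in log2 CPM. Its log2 fold change was −0.27 (SE 0.190) and with the block −0.28 (SE 0.115, edgeR unadjusted p = 0.0385, adjusted p = 0.524). HERC6, a HECT-domain protein whose mouse relative attaches ISG15 to its targets, went the other way, with 11.7, 14.1 and 19.1 CPM in the si-SRPX2 libraries, against 9.71, 10.9 and 16.8 CPM in the si-Control libraries. All 3 pairs were higher with si-SRPX2 while the groups overlapped widely, and the blocked log2 fold change was 0.27 (SE 0.103, edgeR unadjusted p = 0.0283, adjusted p = 0.521). HERC5, which attaches ISG15 in human cells, had a log2 fold change of −0.11 (SE 0.140).

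STAT2 and IRF9, subunits of the interferon-activated transcription factor, had negative log2 fold changes. STAT2 (chromosome 12, 56341597 to 56360167, minus strand) had 54.3, 28.5 and 75.4 CPM in the si-SRPX2 libraries, against 56.0, 34.3 and 89.7 CPM in the si-Control libraries. Its libraries differed far more by number than by siRNA, and the differences within pairs 1, 2 and 3 were −0.05, −0.27 and −0.25 in log2 CPM. With the block its log2 fold change was −0.19 (SE 0.0678, edgeR unadjusted p = 0.0236, adjusted p = 0.504), and without it −0.19 (SE 0.448), or 0.11 without si-SRPX2 replicate 2 and 0.22 without si-Control replicate 3. IRF9 (chromosome 14, 24161265 to 24166565, plus strand) had 11.0, 6.71 and 10.7 CPM in the si-SRPX2 libraries, against 10.8, 9.02 and 16.0 CPM in the si-Control libraries, lower with si-SRPX2 in pairs 2 and 3 but not in pair 1. Its blocked log2 fold change was −0.32 (SE 0.139, edgeR unadjusted p = 0.0477, adjusted p = 0.537). IRF9 shares its extent with the transcript AL136295 on the same strand, which had a mean of 3100.7 reads against 752.2 for IRF9, so its count is uncertain. The other factors had log2 fold changes of −0.13 (IRF3, SE 0.135), 0.10 (IRF1) and −0.00 (IRF7), none with an unadjusted p under 0.05 in either fit.

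SAMHD1 and GBP2 had the log2 fold changes of largest size among the 35 tested genes in the fit of siRNA alone. SAMHD1, a phosphohydrolase that depletes the nucleotides retroviruses need (chromosome 20, 36890229 to 36951843, minus strand), had 30.7, 31.5 and 49.8 CPM in the si-SRPX2 libraries, against 38.8, 59.7 and 52.8 CPM in the si-Control libraries. The gap was widest in pair 2 and small in pair 3, at −0.33, −0.91 and −0.08 in log2 CPM for pairs 1, 2 and 3. The log2 fold change was −0.43 (SE 0.252), and −0.45 with the block (SE 0.142, edgeR unadjusted p = 0.0134, adjusted p = 0.482). GBP2, a guanylate-binding protein of cell-autonomous immunity (chromosome 1, 89106132 to 89150456, minus strand), had 58.6, 8.89 and 60.3 CPM in the si-SRPX2 libraries, against 95.4, 9.25 and 70.2 CPM in the si-Control libraries. Both replicate 2 libraries were low whatever the siRNA, and the groups overlapped. Its log2 fold change was −0.45 (SE 0.934), and −0.34 with the block (SE 0.116, edgeR unadjusted p = 0.0188, adjusted p = 0.495). Without si-SRPX2 replicate 2 the log2 fold change of GBP2 was 0.03, and without si-Control replicate 1 it was 0.10, in fits that left the replicate numbers unbalanced.

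No difference between the siRNAs passed the test among the sensors and the IFIT, IFITM and OAS families. Of their 15 tested genes 0 had an unadjusted p under 0.05 in edgeR with or without the block, in the fits of genes past the expression filter. MAVS had a log2 fold change of −0.05 (SE 0.167), at means of 171 ± 21.6 CPM with si-SRPX2 and 177 ± 28.8 CPM with si-Control (SD, n = 3 each). DDX58, the RIG-I gene, was lower within all 3 pairs, with 26.6, 23.6 and 32.3 CPM in the si-SRPX2 libraries, against 34.5, 25.0 and 36.5 CPM in the si-Control libraries, a log2 fold change of −0.22 (SE 0.202) and a blocked unadjusted p of 0.0523 from edgeR. In the blocked edgeR fit with no expression filter, the unadjusted p of DDX58 was 0.0452. EIF2AK2, the gene of PKR, was at 0.01 (SE 0.146). IFIT3 had 10.8, 20.3 and 17.8 CPM in the si-SRPX2 libraries, against 12.8, 16.1 and 16.1 CPM in the si-Control libraries, a log2 fold change of 0.12 (SE 0.261) whose pairs disagreed in direction. IFITM3 had means of 126 ± 22.4 CPM with si-SRPX2 and 133 ± 29.9 CPM with si-Control (SD, n = 3 each) and a log2 fold change of −0.09 (SE 0.205). For OAS3 it was −0.00 (SE 0.282), and for PARP14, which is outside these families, 0.04 (SE 0.156), with 124, 97.6 and 128 CPM in the si-SRPX2 libraries, against 111, 101 and 127 CPM in the si-Control libraries.

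Of the genes under the expression filter, MX1, a GTPase that restricts influenza virus (chromosome 21, 41420304 to 41459214, plus strand), was the one whose groups did not overlap with si-SRPX2 higher. It had 120, 113 and 154 reads in the si-SRPX2 libraries, against 85, 103 and 84 in the si-Control libraries, and 1.65, 1.52 and 2.23 CPM in the si-SRPX2 libraries, against 1.37, 1.36 and 1.20 CPM in the si-Control libraries. In a fit of all 31348 genes its log2 fold change was 0.45 (SE 0.314, edgeR unadjusted p = 0.193), with the widest gap in pair 3. The share of all genes under the filter that separate in this way was not counted, so no share stands beside MX1. DHX58 had 162, 63 and 38 reads in the si-SRPX2 libraries, against 83, 64 and 56 in the si-Control libraries, with si-SRPX2 replicate 1 above the rest. OAS2, ISG20, an RNA exonuclease gene, and IFI44L had log2 fold changes of 0.13, −0.20 and −0.01 in that fit. No fold is given for MX2, RSAD2, CMPK2 and BST2, which had few or 0 reads in some libraries.

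The larger contrast ran between replicate numbers and was shared by both siRNAs. The number was tested in edgeR with siRNA in the model and 2 degrees of freedom. What a replicate number stands for (a day, a passage) is not stated. At an adjusted p under 0.05, 24 of the 35 genes (68.6%) differed between replicate numbers, against 55.2% of all genes. The means of the replicate numbers spanned more than 2-fold in 5 of the 35, GBP2, IFI27, STAT2, IFI6 and OAS1 (14.3%), against 12.6% of all genes. The median span was 0.51 on the log2 scale, against 0.43 for all genes. All spans are between the replicate numbers' means of log2(CPM + 0.5). For a gene of few CPM the added 0.5 makes the span smaller than the CPM alone would give. Of each gene's sum of squares in log2 CPM, the median share was 2.21% for siRNA, 86.3% for the replicate number and 5.06% for the rest, against 4.03%, 84.1% and 7.75% over all genes, the number having 2 degrees of freedom and siRNA 1. Replicate 2 was lowest in 18 of the 35, against 40.5% of all genes, and highest in 8, against 39.4%.

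**Figure D3:**
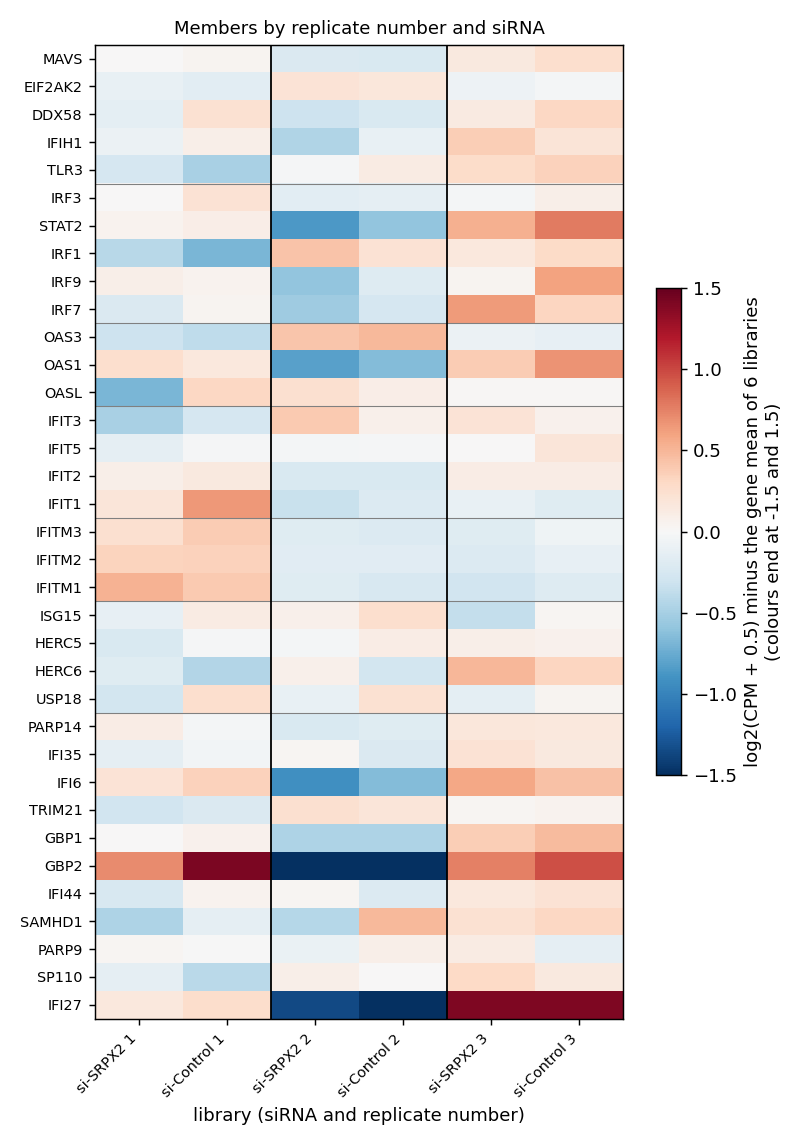
Deviation of each of the 35 genes from its mean over the 6 libraries, in log2(CPM + 0.5), with same-numbered libraries side by side, si-SRPX2 to the left of si-Control and the colour scale ending at −1.5 and 1.5. The columns of a pair resemble each other more than those of a siRNA, with GBP2 and IFI27 deep blue, that is low, in both replicate 2 libraries.

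IFI27 and GBP2 spanned the widest range. IFI27, a mitochondrial and nuclear envelope protein gene that interferon induces strongly (chromosome 14, 94104836 to 94116698, plus strand), had 2.71, 0.634 and 7.13 CPM in the si-SRPX2 libraries, against 2.97, 0.290 and 7.11 CPM in the si-Control libraries. Replicate 2 was lowest and replicate 3 highest with both siRNAs, a span of 8.05-fold (adjusted p = 0.000174 for the replicate number from edgeR). That span is between means of log2(CPM + 0.5), and at such low CPM it is smaller than the ratio of the CPM. Its lowest library, si-Control replicate 2, held 22 reads. GBP2, given above, spanned 7.87-fold (adjusted p = 1.80e-05 from edgeR). Its neighbour GBP1, a GTPase of the same family (chromosome 1, 89052319 to 89065230, minus strand), had 33.8, 24.3 and 43.6 CPM in the si-SRPX2 libraries, against 35.2, 24.2 and 46.7 CPM in the si-Control libraries, a span of 1.84-fold with replicate 2 lowest and replicate 3 highest (adjusted p = 0.000415 from edgeR). The siRNAs differed in GBP1 by −0.06, 0.01 and −0.10 in log2 CPM within pairs 1, 2 and 3.

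STAT2 and IFI6 were also lowest in replicate 2 and highest in replicate 3. STAT2, with the values above, spanned 2.61-fold (adjusted p = 3.35e-05 from edgeR). IFI6, an inhibitor of flavivirus replication and of apoptosis (chromosome 1, 27666064 to 27672192, minus strand), had 8.35, 3.56 and 10.9 CPM in the si-SRPX2 libraries, against 9.24, 4.39 and 9.93 CPM in the si-Control libraries, with both replicate 2 libraries under the other 4 (span 2.45-fold, adjusted p = 0.000716 from edgeR). OAS3 ran the other way (chromosome 12, 112938444 to 112968054, plus strand), with 56.9, 94.7 and 66.2 CPM in the si-SRPX2 libraries, against 54.2, 98.8 and 65.0 CPM in the si-Control libraries. Replicate 2 was highest there with both siRNAs, the span was 1.74-fold and the adjusted p 0.000127 from edgeR. OAS1, beside it on chromosome 12, spanned 2.39-fold with replicate 2 lowest (adjusted p = 0.00243 from edgeR). These neighbours of 1 enzyme family thus had replicate 2 at opposite ends.

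**Figure D4:**
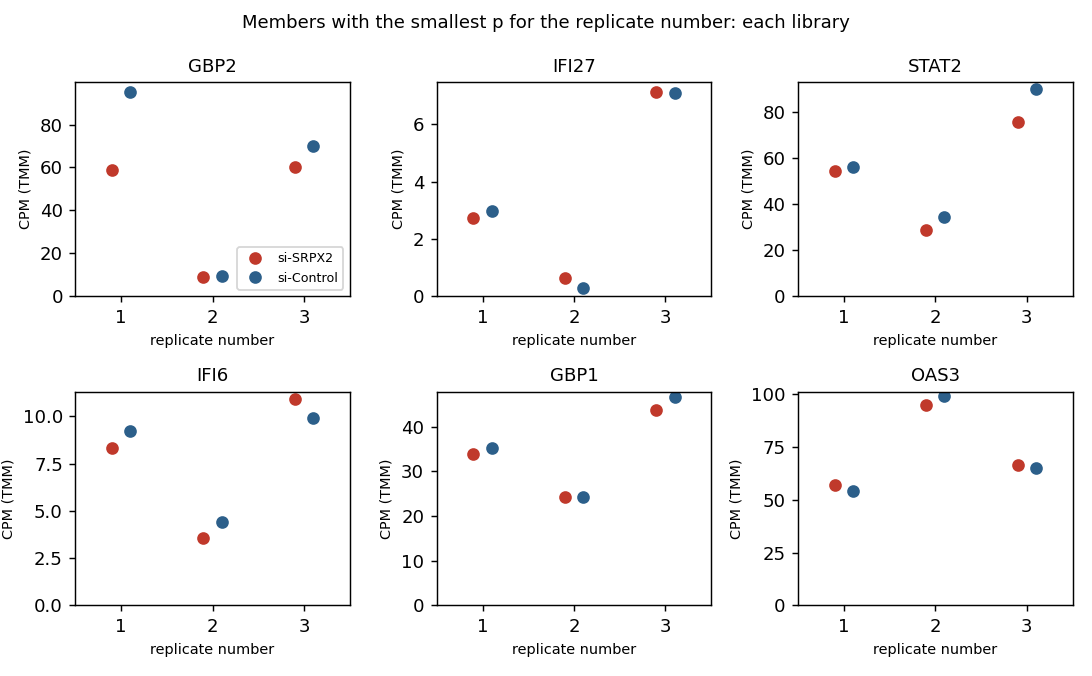
TMM-scaled CPM in each library of the 6 genes with the smallest p for the replicate number, on axes that start at 0, by replicate number and with si-SRPX2 (red) to the left of si-Control (blue). In GBP2, IFI27, STAT2, IFI6 and GBP1 replicate 2 is lowest with both siRNAs, and in OAS3 it is highest.

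Across functional groups, all 5 tested sensor and adaptor genes, 4 of 5 transcription factors, all 3 IFITM genes, 2 of 3 OAS genes, 2 of 4 IFIT genes, 7 of 11 other effectors and 1 of 4 genes of the ISG15 system passed an adjusted p of 0.05 for the replicate number in edgeR. Over all genes 55.2% passed, and the functional groups are too small to be set apart from that share. The spans of the sensors and MAVS ran from 1.25-fold in EIF2AK2 to 1.60-fold in TLR3, and those of the other effectors from 1.01-fold in PARP9 to 8.05-fold in IFI27. IFITM3, IFITM2 and IFITM1 were highest in replicate 1, as was IFIT1. IRF1, a factor that interferon gamma induces strongly, was lowest in replicate 1 with both siRNAs (18.5, 33.6 and 27.9 CPM in the si-SRPX2 libraries, against 15.3, 29.01 and 30.3 CPM in the si-Control libraries). USP18 and ISG15 did not pass for the number (adjusted p = 0.901 and 0.149 from edgeR). The summed FPKM of the epithelial markers, mostly KRT8 and KRT18, was 205 and 159 in the si-SRPX2 and si-Control replicate 2 libraries, against 107 and 97.8 in the other si-SRPX2 libraries and 105 and 89.2 in the other si-Control libraries. The summed FPKM of the thyroid markers was 85.2 and 89.9 in the si-SRPX2 and si-Control replicate 2 libraries and 101 to 115 in the other 4. The share of mitochondrial reads was 3.70% and 3.91% in the si-SRPX2 and si-Control replicate 2 libraries, against 4.37% to 4.94% in the other 4. Of the fibroblast markers, COL1A1 and PDGFRB, at means of 0.408 and 0.314 FPKM, spanned 3.47-fold and 2.32-fold between the replicate numbers and were highest in replicate 1. The part of these values in the order of the interferon genes was not tested.

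Genes upstream and alongside the set gave the setting. Of 71 further interferon pathway genes listed, 64 had a row and 57 were tested, with 26 positive and 31 negative log2 fold changes and a median of −0.01. In edgeR 0 of the 57 had an adjusted p under 0.05 and 0 an unadjusted p under 0.05. With the block 2 were higher and 3 lower at an unadjusted p under 0.05 in edgeR (8.77%), against 9.21% of all genes. After adjustment 0 passed. Both chains of the type I receptor were present, IFNAR1 at 8.72 FPKM and IFNAR2 at 7.01 FPKM, as were the kinases JAK1 (20.5 FPKM) and TYK2 (8.64 FPKM). Of the ligands, IFNE, an interferon of epithelia, passed the filter at 1.08 FPKM, and IFNB1 and IFNA1 were at 0.00785 and 0.0228 FPKM.

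SOCS1, the feedback inhibitor of the JAK kinases, had 4.04, 10.3 and 4.16 CPM in the si-SRPX2 libraries, against 2.32, 5.11 and 3.98 CPM in the si-Control libraries, higher in every pair (blocked log2 fold change 0.63, unadjusted p = 0.0197 from edgeR). TRAF3, an adaptor between MAVS and the kinase TBK1, had 74.6, 76.1 and 69.9 CPM in the si-SRPX2 libraries, against 62.0, 65.2 and 69.4 CPM in the si-Control libraries, with each si-SRPX2 value above each si-Control value (log2 fold change 0.17, SE 0.110). Such a separation with si-SRPX2 higher was found in 1 of the 57 tested genes, against 1.6% of all genes. With si-SRPX2 lower 1 of the 57 separated, against 1.66% of all genes. IFNLR1, the type III receptor chain, had a log2 fold change of −0.29 (SE 0.215). None of these 3 passed an adjusted p of 0.05 in edgeR.

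By replicate number, 33 of the 57 (57.9%) passed an adjusted p of 0.05 in edgeR, against 55.2% of all genes. The 4 with the smallest p again took different orders. APOL1, a trypanosome lytic factor, was highest in replicate 1, with 253, 149 and 97.7 CPM in the si-SRPX2 libraries, against 229.9, 134 and 98.9 CPM in the si-Control libraries. TRIM22, an antiviral ubiquitin ligase, was highest in replicate 3, with 3.96, 2.63 and 14.9 CPM in the si-SRPX2 libraries, against 4.81, 2.68 and 15.3 CPM in the si-Control libraries. TNFSF10, the death ligand TRAIL, resembled GBP2 in that both replicate 2 libraries were low, with 40.9, 7.91 and 47.6 CPM in the si-SRPX2 libraries, against 69.4, 13.3 and 51.2 CPM in the si-Control libraries. LGALS3BP, a secreted glycoprotein, was also lowest in replicate 2, with 382, 255 and 441 CPM in the si-SRPX2 libraries, against 374, 255 and 461 CPM in the si-Control libraries. Their spans were 2.45-fold, 4.95-fold, 4.99-fold and 1.77-fold in that order.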

How the data were processed

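Total RNA of 6 TPC1 samples was sequenced on an Illumina NovaSeq. StringTie 2.1.6 and ballgown gave the authors' expression estimates, and DESeq2 and edgeR are further tools in the submitters' processing notes. The authors deposited raw read counts per gene and library, and the deposited FPKM are read levels that the authors corrected for transcript length and library size. Not given in the sources used here are the aligner, the genome build, the annotation release and the strand setting of counting. All 44 measured genes of the set started within 100000 bases of their position in GENCODE release 29, so coordinates are given on GRCh38. All per-sample columns were matched to a sample by its labels.

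Counts of 13317 genes, those whose mean FPKM reached 0.5, were tested with edgeR 4.0.16 in R 4.3.3 (TMM, glmQLFit, glmQLFTest, Benjamini-Hochberg), for siRNA alone, for siRNA with the replicate number as a block, and for the replicate number with siRNA in the model. Differences within pairs and spans between replicate numbers used log2(CPM + 0.5). The deviations of same-numbered libraries from their group means correlated at 0.640, 0.822 and 0.706, and no si-SRPX2 and si-Control libraries of different numbers exceeded 0.117, so the numbers were taken to pair the libraries on these values. Counts of any library pair differed by a chi-square per gene of 17.7 or more, so none was a repeat. The fits were tested on simulated data. Totals of 63824315 to 75828542 reads limit counting precision only, and p-values measure the spread between these samples.

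Genes were named with values in every library when their unadjusted p was under 0.05 for siRNA with or without the block, when their groups did not overlap in CPM, when they had the highest mean FPKM of their functional group, or when they were among the 6 of smallest p for the replicate number. Of the other pathway genes, the 4 of smallest p in each test were named, except 1 gene that is not reported here. DDX58, IRF1, OAS1 and the genes with few reads were added after their values were seen. The genes of the set and the pathway list were chosen with earlier results of these data known. Alternatives were DESeq2 1.42.0, other size factors, filterByExpr or no expression filter, limma 3.58.1 on log2(FPKM + 1) or log2(FPKM + 0.1), the replicate block and leaving out libraries. Promoter sequences came from RefSeq (GRCh38.p14), in which 34 of the 45 genes were matched. In 31 of the 34, the last 40 bases of the window were found in a GENCODE transcript of the gene. Figures were drawn with matplotlib 3.10.9.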

Additional observations from a re-analysis of the deposited data

How the results depend on the processing

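Over 16 alternatives, of which 3 were added after seeing the data, the median log2 fold change of the set stayed negative, at −0.156 to −0.000316 in the fits that left out 1 library. The count of all genes past an adjusted p of 0.05 was 3 with DESeq2 and 6 with the replicate block in edgeR. With siRNA alone in edgeR it was 0 with all 6 libraries and 0 in each fit without 1 library. With the replicate block, 6 of the 35 genes had an unadjusted p under 0.05 in edgeR, against 0 with siRNA alone. For this comparison, the fits that left out libraries also held siRNA alone. Their counts were 0 to 1 without 1 library and 1 without both replicate 2 libraries, a setting chosen after seeing the data. These counts do not show how the count with the block depends on single libraries. The log2 fold change of OAS3, near 0, turned to 0.0111 with the replicate block, 0.0292 with limma on log2(FPKM + 1), 0.0344 with limma on log2(FPKM + 0.1) and 0.0452 without both replicate 2 libraries. That of IFIT3 turned to −0.0117 without both replicate 2 libraries, and that of PARP14 to −0.00512 without both replicate 1 libraries. The cause was not tested.

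Without 1 library, which unbalances the replicate numbers, the log2 fold change ranged from −0.54 to 0.22 for STAT2, −0.96 to 0.10 for GBP2, −0.0667 to 0.346 for IFIT3, −0.24 to 0.11 for IFITM3, −0.0363 to 0.154 for PARP14, −0.24 to 0.28 for OAS3 and −0.162 to 0.0745 for MAVS. It kept its sign for IRF9 (−0.50 to −0.06), ISG15 (−0.39 to −0.17), HERC6 (0.05 to 0.54), SAMHD1 (−0.70 to −0.29) and IRF3 (−0.22 to −0.04). For the replicate number, 6150 to 7199 genes and 19 to 24 of the set passed without 1 library. With no expression filter 5471 genes and 17 of the set passed, and with filterByExpr 7690 genes and 25 of the set.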
